A study of Mus musculus with 12 samples.

Results

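The acute phase plasma protein genes described here are 10 genes of the liver, taken by symbol from the deposited table of 45777 mouse genes: the serum amyloid A genes *Saa1*, *Saa2*, *Saa3* and *Saa4*, the orosomucoid genes *Orm1* and *Orm2*, haptoglobin (*Hp*), hemopexin (*Hpx*), lipocalin 2 (*Lcn2*) and inter-alpha-trypsin inhibitor heavy chain 4 (*Itih4*). All 10 were found, and all 10 passed the filter on low counts in every comparison. The RNA came from the livers of 12 male C57BL/6 mice in 4 groups of 3, which cross genotype (WT, or labelled *Gna12* KO, that is Gα12-/-) with treatment (vehicle or APAP). Acetaminophen (APAP) poisons hepatocytes in overdose. After an overnight fast, treated mice received 300 mg/kg by intraperitoneal injection, and livers were collected 6 h later. WT mice were littermates of the KO mice, and the labels give an age of 10 to 12 weeks. The libraries hold 49737950 to 69566079 counted reads each. *Gna12* itself had 1193 to 4373 counts in the WT livers and 2472 to 4003 in the livers labelled KO, so its counts were not lower there. A count over the whole gene can include reads from outside a deleted part, which the sources used here do not place, so these counts are no check of the label, and the groups are called by the KO label throughout. All 10 of the hepatocyte markers examined, among them albumin (*Alb*), were detected in each liver, and together they held 85689 to 150557 CPM (counts scaled to a common library total).

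Acute phase proteins are plasma proteins whose concentration shifts within hours of infection or tissue injury, and hepatocytes make most of them. Cytokines of the IL-6 family raise their genes through gp130, JAK kinases and STAT3. IL-1 and TNF act on them through NF-kB, the C/EBP transcription factors take part in both routes, and glucocorticoids reinforce the response. Serum amyloid A 1 and 2 replace other apolipoproteins on high-density lipoprotein and are among the strongest responders in the mouse. Serum amyloid A 4 is regarded as a constitutive member of the family, and serum amyloid A 3 is made mainly outside the hepatocyte. Orosomucoids bind drugs and lipids, haptoglobin captures free hemoglobin, hemopexin captures free heme, lipocalin 2 binds the iron-carrying siderophores of bacteria, and ITIH4 is a plasma glycoprotein that is cleaved by plasma kallikrein.

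The 4 *Saa* genes lie side by side on chromosome 7 of GRCm38 (the build of the files, also called mm10), at chr7:46740497-46743181 for *Saa1*, chr7:46751833-46754313 for *Saa2*, chr7:46711998-46719615 for *Saa3* and chr7:46727992-46732603 for *Saa4*. *Orm1* (chr4:63344556-63348163) and *Orm2* (chr4:63362449-63365877) neighbour each other on chromosome 4. *Hpx* is at chr7:105591611-105600116, *Hp* at chr8:109575128-109579172, *Lcn2* at chr2:32384637-32387739 and *Itih4* at chr14:30886476-30901986, and all 10 are annotated by RefSeq as protein coding.

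RefSeq windows of the 250 bases before a transcript start (GRCm38.p6) were matched for 8 of the 10 genes, the exceptions being *Hp* and *Orm1*. The runs shown are those of the near-identical pair *Saa1* and *Saa2*, and of *Lcn2*, *Saa4* and *Orm2*. *Lcn2* and *Saa4* passed an adjusted p of 0.05 for APAP against vehicle under the KO label. *Orm2* did so in the fit over all livers without WT vehicle liver 2, which is a description and no test. Each runs 5′ to 3′ from base 250 to base 45 before the start on the strand of the gene, at chr7:46743025-46743230 (minus strand) for *Saa1*, chr7:46751583-46751788 (plus) for *Saa2*, chr4:63362199-63362404 (plus) for *Orm2*, chr2:32387784-32387989 (minus) for *Lcn2* and chr7:46732648-46732853 (minus) for *Saa4*. The run of *Saa1* lies partly inside the annotated gene, which on its strand begins at chr7:46743181. Capitals mark matches to the C/EBP letters TTGCNNAA on either strand.
Saa1: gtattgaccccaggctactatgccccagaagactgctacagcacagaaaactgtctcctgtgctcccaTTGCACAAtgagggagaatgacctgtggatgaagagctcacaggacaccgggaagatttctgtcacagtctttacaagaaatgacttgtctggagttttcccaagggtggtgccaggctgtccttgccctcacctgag
Saa2: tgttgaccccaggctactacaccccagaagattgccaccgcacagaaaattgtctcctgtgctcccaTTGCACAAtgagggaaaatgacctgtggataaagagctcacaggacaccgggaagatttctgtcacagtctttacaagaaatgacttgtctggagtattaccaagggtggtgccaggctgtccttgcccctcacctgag
Orm2: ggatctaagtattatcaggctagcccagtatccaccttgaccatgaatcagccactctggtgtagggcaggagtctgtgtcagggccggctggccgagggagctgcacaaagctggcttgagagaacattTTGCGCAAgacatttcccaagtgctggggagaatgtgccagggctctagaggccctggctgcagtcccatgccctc
Lcn2: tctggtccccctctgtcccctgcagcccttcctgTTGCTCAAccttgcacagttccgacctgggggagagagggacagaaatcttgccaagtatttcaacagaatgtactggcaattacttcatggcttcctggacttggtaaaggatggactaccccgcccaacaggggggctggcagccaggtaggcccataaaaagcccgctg
Saa4: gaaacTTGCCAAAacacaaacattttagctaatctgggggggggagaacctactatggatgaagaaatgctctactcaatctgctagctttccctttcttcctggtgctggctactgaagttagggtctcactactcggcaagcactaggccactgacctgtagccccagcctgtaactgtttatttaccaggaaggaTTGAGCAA
The C/EBP letters were found in 7 of the 8 member windows, against 9.56% of all 32851 windows of the same length in the table. They lay at nearly the same distance in *Saa1* (bases 182 to 175 before the start) and *Saa2* (bases 183 to 176), whose 250-base windows were identical at 94.8% of aligned positions, and *Orm2* held them at bases 120 to 113. *Itih4* was the member without them. The STAT letters TTCNNNGAA occurred in 1 of the 8 windows, that of *Itih4* (7.02% of all windows). The NF-kB letters GGGNNTTNCC were in 0 of 8 (4.11% of all) and the glucocorticoid receptor letters GNACANNNTGTNC in 0 of 8 (0.387% of all). Both strands were searched, and a match is a run of letters only.

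In length-corrected units (TPM), *Hpx* and *Hp* were the highest members, with medians of 3393 and 3369 TPM over the 11 livers other than WT vehicle liver 2. *Orm1* (832 TPM) and *Itih4* (735 TPM) followed, then *Saa4* (186 TPM) and *Saa1* (150 TPM). *Lcn2* (44.5 TPM), *Saa2* (36.8 TPM), *Orm2* (26.4 TPM) and *Saa3* (6.56 TPM) were the lowest. The ranges of neighbours in this order overlapped, for example 2118 to 4280 TPM for *Hpx* and 2498 to 5134 TPM for *Hp*, with exceptions at *Hp* and *Orm1* (463 to 1339 TPM) and at *Itih4* (405 to 1163 TPM) and *Saa4* (57.0 to 309 TPM). In WT vehicle liver 2 the order was another one: *Hp* led with 12327 TPM, *Saa1* followed with 11110 TPM and *Saa2* with 9164 TPM, which placed these 3 genes at ranks 8, 13 and 20 among all genes of that liver. By their median over the other 11 livers, *Saa1* stood at rank 658 and *Saa2* at rank 2001.

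WT vehicle liver 2 thus stood apart from every other liver in these genes, and each comparison of the 10 genes that it enters is given with and without it. It was singled out beforehand for its high level of these genes. Leaving it out moves the estimates by that choice, so p-values of the 10 genes without it are a description and no test. All 10 members had their highest CPM in this one liver, whereas 1363 of the 16509 genes tested across the 12 livers did. The 10 genes took 3.361% of all counts there and from 0.6377% to 1.208% in the other 11 livers. The second highest liver was WT APAP liver 3 for 7 of the 10 members, and WT vehicle liver 1 was the lowest for 7 of the 10. The 2 livers that bound the range in most members were therefore both vehicle livers of WT mice.

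**Figure D1:**
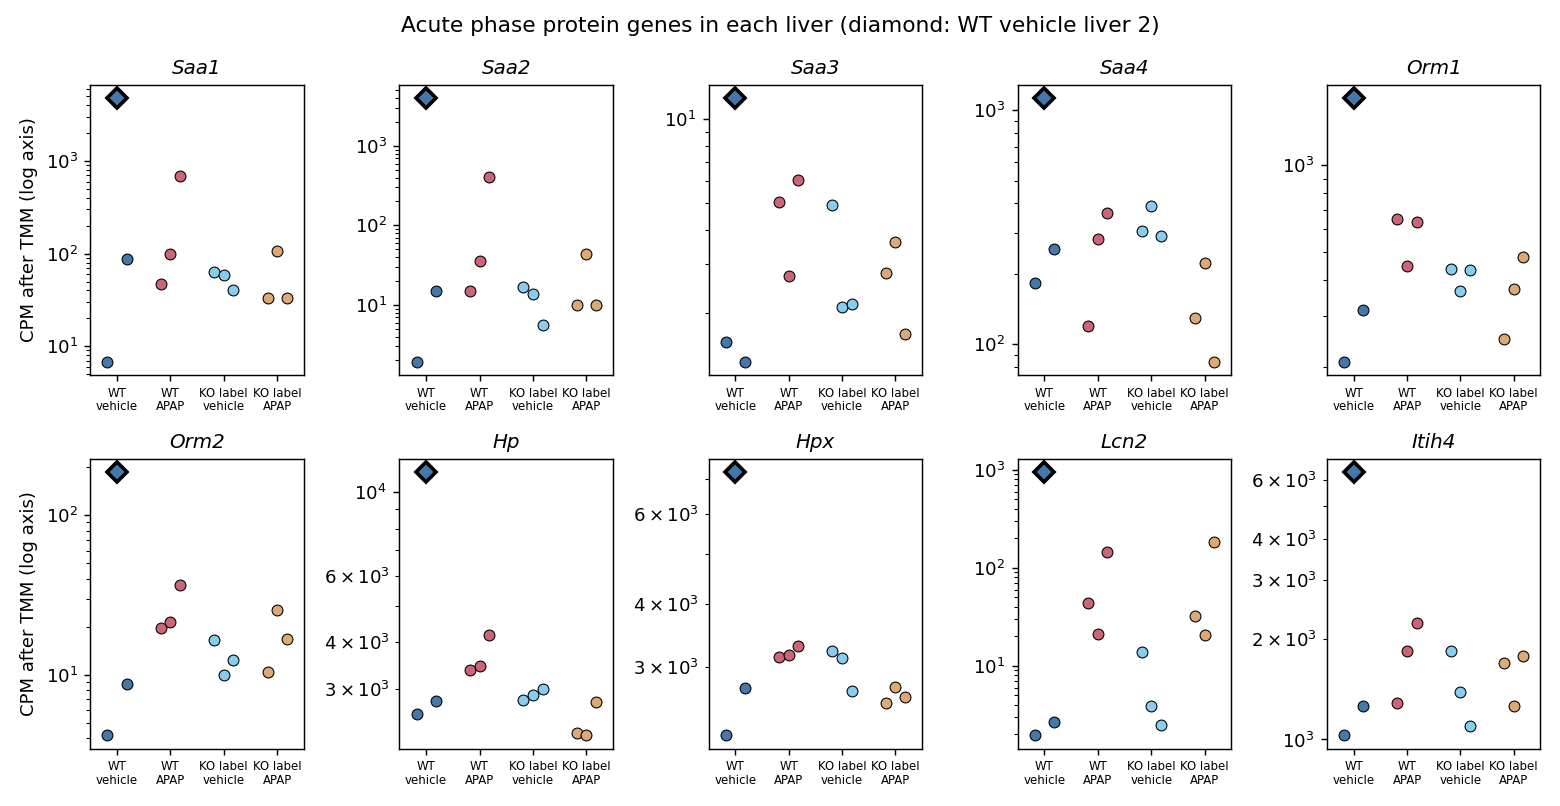
Each panel plots the CPM of one gene (log axis, after TMM scaling over the 12 libraries) in every liver, by group, with 3 livers per group and WT vehicle liver 2 drawn as a diamond. The diamond is the highest point in all 10 panels, and the other 11 livers spread over 103-fold in *Saa1* but 1.50-fold in *Hpx*.

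*Saa1* and *Saa2* were the members that varied most. *Saa1* had 6.80, 4788 and 86.6 CPM in the WT vehicle livers (in the order of livers 1 to 3), 47.1, 100 and 697 CPM in the WT APAP livers, 62.8, 58.8 and 40.5 CPM in vehicle livers with the KO label, and 33.0, 106 and 33.3 CPM in the APAP livers labelled KO. *Saa2* had 1.93, 3993 and 14.8 CPM, then 14.8, 35.2 and 412 CPM, then 16.7, 13.9 and 5.57 CPM, and 9.98, 43.4 and 10.0 CPM in the same order. In both genes WT vehicle liver 2 was the highest, WT APAP liver 3 the next and WT vehicle liver 1 the lowest, and APAP and vehicle livers overlapped under both genotype labels. The level in WT vehicle liver 2 was 103 times the mean of the other 2 WT vehicle livers for *Saa1* and 476 times for *Saa2*. The share of the pair that was *Saa2* also moved: the count of *Saa2* was 0.138 to 0.411 of that of *Saa1* in 10 livers, 0.591 in WT APAP liver 3 and 0.834 in WT vehicle liver 2. Of the 100-base windows in the annotated *Saa1* transcripts, 8.96% also occur in *Saa2*, and how reads there were assigned is not given in the sources used here, so part of each gene's count is uncertain between the copies.

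**Figure D2:**
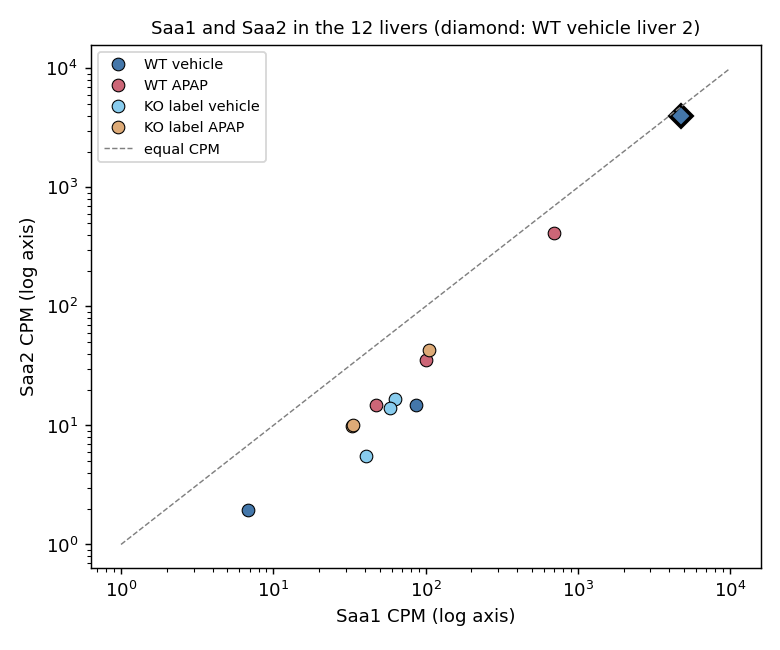
*Saa2* CPM is plotted against *Saa1* CPM, both on log axes, with one point per liver coloured by group and a dashed line of equal CPM. The livers fall along a band that approaches the dashed line at the top, where the ratio of the counts is 0.834 in WT vehicle liver 2 (diamond).

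The other serum amyloid genes moved less. *Saa3* was low everywhere, at 1.58, 11.9 and 1.34 CPM in the WT vehicle livers, 5.03, 2.72 and 6.03 CPM in the WT APAP livers, 4.92, 2.10 and 2.17 CPM in vehicle livers with the KO label and 2.80, 3.60 and 1.68 CPM in the APAP livers labelled KO. *Saa4* had 183, 1127 and 256 CPM, 120, 282 and 365 CPM, 306, 389 and 291 CPM, and 129, 222 and 84.2 CPM in that order. *Saa4* was thus lower in every APAP liver labelled KO than in any vehicle liver with that label, while the WT groups overlapped. In TPM the groups labelled KO overlapped too (194 in APAP liver 2, 185 in vehicle liver 3).

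*Orm1* had 209, 1710 and 315 CPM in the WT vehicle livers, 652, 450 and 635 CPM in the WT APAP livers, 439, 366 and 434 CPM in vehicle livers with the KO label and 250, 372 and 482 CPM in the APAP livers labelled KO. *Orm2* had 4.15, 187 and 8.78 CPM, 19.7, 21.3 and 36.5 CPM, 16.4, 10.0 and 12.4 CPM, and 10.4, 25.4 and 16.7 CPM in the same order. With WT vehicle liver 2 set aside, the 3 WT APAP livers were above both remaining WT vehicle livers in both genes, and under the KO label the groups overlapped. The TPM of *Orm2* was 0.0199 to 0.0686 of that of *Orm1* in 11 livers and 0.110 in WT vehicle liver 2. These 2 genes share 6.95% of their 100-base windows, which leaves some of their reads uncertain too.

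*Hp* and *Hpx*, the scavengers of hemoglobin and heme, were high, and even outside WT vehicle liver 2. *Hp* had 2584, 11316 and 2787 CPM in the WT vehicle livers, 3365, 3460 and 4185 CPM in the WT APAP livers, 2816, 2890 and 2998 CPM in vehicle livers with the KO label and 2291, 2261 and 2771 CPM in the APAP livers labelled KO. *Hpx* had 2207, 7241 and 2732 CPM, 3150, 3177 and 3306 CPM, 3227, 3128 and 2691 CPM, and 2549, 2748 and 2628 CPM in that order. By CPM, vehicle and APAP livers labelled KO did not overlap for *Hp*, and the APAP livers were the lower ones. In WT, setting aside vehicle liver 2, the APAP livers were the higher ones by CPM in both genes. In TPM the groups overlapped in each of these cases.

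*Lcn2* was the member with the clearest separation by treatment outside WT vehicle liver 2. *Lcn2* had 1.95, 956 and 2.66 CPM in the WT vehicle livers, 43.7, 21.3 and 147 CPM in the WT APAP livers, 13.8, 3.87 and 2.50 CPM in vehicle livers with the KO label and 32.4, 20.7 and 186 CPM in the APAP livers labelled KO. The lowest of the 6 APAP livers was above the highest of the other 5 vehicle livers. *Itih4* had 1028, 6347 and 1256 CPM, 1284, 1842 and 2232 CPM, 1840, 1392 and 1097 CPM, and 1700, 1257 and 1776 CPM in the same order, and its groups overlapped under the KO label.

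APAP was first compared with vehicle in WT mice, on 6 livers, with the quasi-likelihood test of edgeR, and p was adjusted (Benjamini-Hochberg) across every gene tested. With all 6 livers, the log2 fold change was below 0 in 10 of 10 members, with a median of -0.85 (median of all genes 0.03), and 0 of 10 passed an adjusted p of 0.05, against 2.05% of all genes. The DESeq2 test also called 0 of 10, 0 of 10 had an unadjusted p under 0.05 (18.0% of all genes), and the adjusted p ran from 0.491 to 0.971. The intervals were wide, for example -2.52 (95% CI -7.04 to 1.99) for *Saa1* and -2.17 (95% CI -6.72 to 2.38) for *Lcn2*. Groups did not overlap for 0 of 10 members (24.9% of all genes).

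Without WT vehicle liver 2, every one of these directions turned. The log2 fold change was above 0 in 10 of 10 members, with a median of 1.40 (median of all genes 0.04). By CPM, the 3 APAP livers were above both vehicle livers in 7 of 10 (*Saa3*, *Orm1*, *Orm2*, *Hp*, *Hpx*, *Lcn2* and *Itih4*), where 41.1% of all genes had groups that did not overlap. In TPM, WT APAP liver 1 was below both vehicle livers for *Hp* (2498 against 3334 and 3169), *Hpx* (2118 against 2578 and 2813) and *Itih4* (405 against 563 and 606). With 2 livers left on one side, 0 of 10 members passed the adjusted threshold (1.43% of all genes), and 5 had an unadjusted p under 0.05 (19.0% of all genes). *Lcn2* had the largest estimate, 4.94 ± 0.93 (SE), a 30.7-fold difference with an adjusted p of 0.0609. *Orm2* differed 4.00-fold (log2 2.00 ± 0.43, adjusted p = 0.0776), *Saa3* 3.15-fold (log2 1.66 ± 0.42, adjusted p = 0.103) and *Orm1* 2.22-fold (log2 1.15 ± 0.30, adjusted p = 0.108). *Saa2* differed 18.4-fold, but its interval ran from 0.18 to 8.22 on the log2 scale (adjusted p = 0.243), and *Saa4* differed least (log2 0.22 ± 0.45, adjusted p = 0.829). Leaving out 1 further liver in turn gave 0 to 2 calls: without WT APAP liver 2, *Lcn2* (adjusted p = 0.0276) and *Saa3* (adjusted p = 0.0455) passed.

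Under the KO label, where WT vehicle liver 2 does not enter, 2 of 10 members changed with APAP, against 22.6% of all genes. *Lcn2* was higher after APAP by 11.8-fold (log2 3.56 ± 0.95, adjusted p = 0.0304). With 1 liver left out in turn, its log2 fold change ran from 1.98 to 4.67. *Saa4* was lower by 2.25-fold (its log2 fold change was -1.17 ± 0.32, adjusted p = 0.0326). The other 8 had log2 fold changes from -0.24 (*Hp*, adjusted p = 0.312) to 0.81 (*Saa2*, adjusted p = 0.372). *Saa1* did not pass, at 0.10 ± 0.43 (95% CI -0.90 to 1.09). By CPM, groups did not overlap for 3 of 10 members, *Saa4*, *Hp* and *Lcn2* (42.8% of all genes). In TPM those of *Saa4* and *Hp* overlapped. Both calls were lost when all 12 livers were fitted together (adjusted p = 0.228 for *Lcn2* and 0.235 for *Saa4*). That fit brings WT vehicle liver 2 into the estimate of variation, and its part in the loss was not tested. Both calls also depended on single livers labelled KO: *Lcn2* had an adjusted p of 0.111 without vehicle liver 2, 0.105 without vehicle liver 3 and 0.0821 without APAP liver 3. *Saa4* had one of 0.0613 to 0.108 without each of vehicle livers 1, 2 and 3 and of 0.0967 and 0.0639 without APAP livers 1 and 3. In the livers labelled KO, *Saa1* turned to -0.69 (adjusted p = 0.0492) without APAP liver 2.

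**Figure D3:**
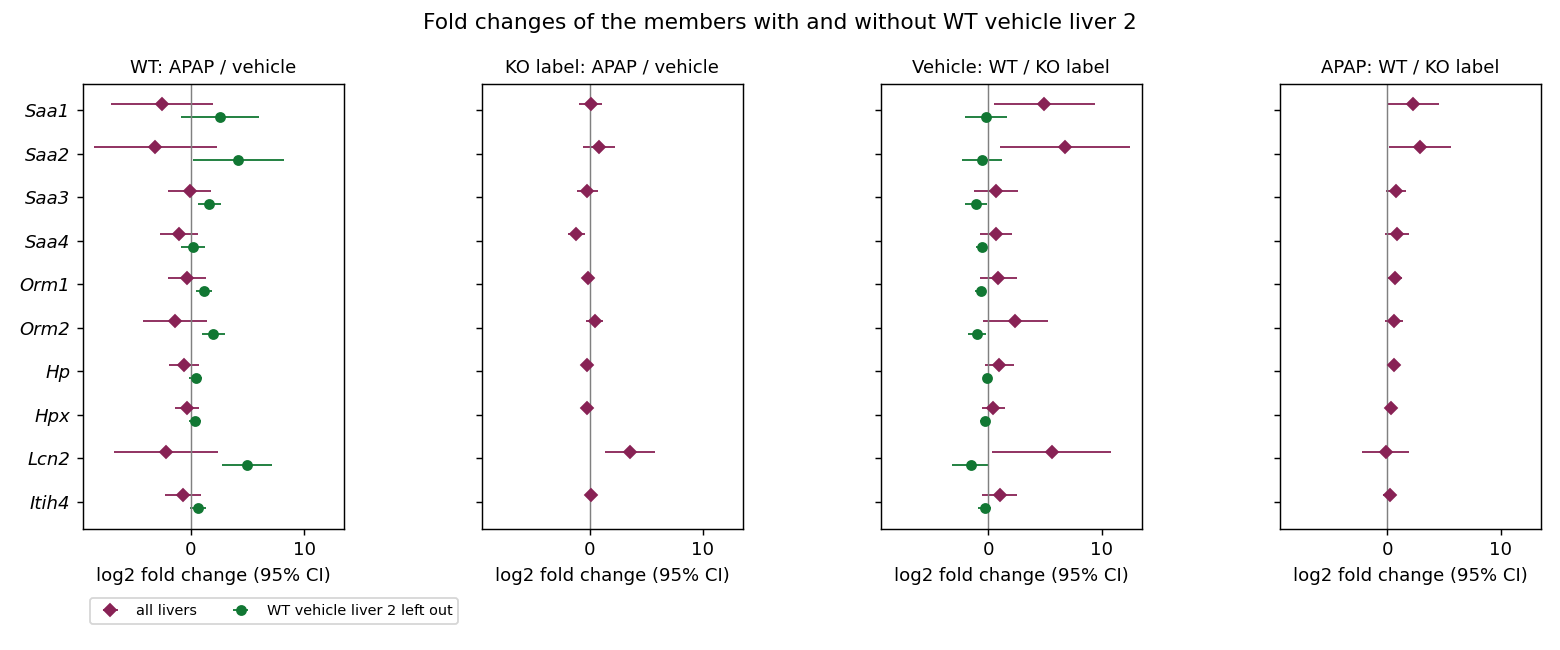
Log2 fold changes from edgeR (x axis) with 95% CI are shown for each member (y axis) in 4 comparisons, with all livers (diamonds) and without WT vehicle liver 2 (circles, only in the 2 comparisons it enters). In WT, 10 of 10 diamonds lie below 0 and 10 of 10 circles above it, and among vehicle livers the reverse holds.

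With all 12 livers in one fit and genotype label as a term, 0 of 10 members passed for APAP against vehicle, by edgeR and by DESeq2 alike, where 25.4% of all genes did (14.0% higher and 11.4% lower). One member, *Saa4*, had an unadjusted p under 0.05, as did 37.1% of all genes (log2 -1.10 ± 0.42, adjusted p = 0.0736). Without WT vehicle liver 2, *Lcn2* was higher after APAP by 17.5-fold (log2 4.13 ± 0.80, adjusted p = 0.00279) and *Orm2* by 2.14-fold (log2 1.10 ± 0.37, adjusted p = 0.0455), 2 of 10 against 27.6% of all genes (15.2% higher and 12.3% lower). The call on *Lcn2* was made in 11 of 11 fits that left out 1 further liver, with log2 fold changes from 3.41 to 4.79. That on *Orm2* was made in 3 of 11 (adjusted p 0.0155 to 0.128). All of these fits leave out a liver chosen for its high level of these genes, so their p-values are a description and no test. *Hp* and *Hpx* stood near 0 in the fit without WT vehicle liver 2, at 0.06 ± 0.15 and 0.06 ± 0.14. *Saa1* had a wider error, at 1.12 ± 0.89. With WT vehicle liver 2 kept and WT vehicle liver 1 left out instead, *Saa4* passed alone (log2 fold change -1.29, adjusted p = 0.0329).

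The genotype labels were then compared within each treatment, which asks about the G protein subunit that *Gna12* encodes and rests on the genotype labels as given. Among vehicle livers, 10 of 10 members had a higher estimate in WT than under the KO label, up to 6.79 for *Saa2*, but 0 of 10 passed (0.0262% of all genes), DESeq2 called 0, 3 had an unadjusted p under 0.05 (7.56% of all genes) and groups did not overlap for 0 of 10 (14.0% of all genes). Without WT vehicle liver 2, all 10 estimates were below 0, from -0.12 for *Hp* to -1.56 for *Lcn2*, with 0 of 10 called (0.0382% of all genes), 4 with an unadjusted p under 0.05 (7.30% of all genes) and 5 whose groups did not overlap (14.0% of all genes). The 5 were *Saa3*, *Saa4*, *Orm1*, *Orm2* and *Hp* by CPM, and in TPM the groups of *Saa3*, *Saa4* and *Hp* overlapped. The smallest adjusted p was 0.557, for *Orm1* (-0.66 ± 0.21). This comparison and that of APAP with vehicle in WT share the WT vehicle livers, so their values are not independent. Likewise, the 2 comparisons with the APAP livers of WT mice share those livers.

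After APAP, where WT vehicle liver 2 is not used, 9 of 10 members had a higher estimate in WT than under the KO label and 0 of 10 passed by either tool (0.0309% of all genes). Unadjusted p was under 0.05 for 4 of 10 members and for 3.31% of all genes. *Hp* was 1.52-fold higher (log2 0.60 ± 0.21, unadjusted p = 0.0192, adjusted p = 0.958, both from edgeR) and *Hpx* 1.23-fold (log2 0.29 ± 0.18, adjusted p = 0.958). By CPM, these were the 2 members whose groups did not overlap (8.73% of all genes). In TPM both overlapped, with WT APAP liver 1 at 2498 for *Hp* and 2118 for *Hpx*. The APAP livers labelled KO had 3112 to 3919 and 3361 to 3404 TPM. *Saa1* had an estimate of 2.30 ± 0.96 and *Saa2* one of 2.87 ± 1.20, both with an adjusted p of 0.958 (0.38 for *Saa1* without WT APAP liver 3, adjusted p = 0.904). With 1 liver left out in turn, the estimate of *Saa2* ran from 0.26 to 3.95. *Lcn2* differed by -0.16 (95% CI -2.25 to 1.93).

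The test of whether the APAP response differed between labels, on all 12 livers, called 0 of 10 members with edgeR and with DESeq2, and 0% of all genes with edgeR. One member, *Lcn2*, had an unadjusted p under 0.05, as did 5.14% of all genes (-5.74 ± 2.54, adjusted p = 0.872). Without WT vehicle liver 2, 10 of 10 estimates were above 0, from 0.52 for *Itih4* to 3.40 for *Saa2*, 6 of 10 had an unadjusted p under 0.05 (4.71% of all genes), and again 0 of 10 members passed (0% of all genes). The smallest unadjusted p was that of *Orm1* (1.31 ± 0.38, adjusted p = 0.913).

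Against the median of the other 11 livers, the 10 members were higher in WT vehicle liver 2 by a median of 2.16 on the log2 scale, and the 36 tested genes of a wider list of positive acute phase proteins by a median of 0.91, with 20 of the 36 highest in that liver. The 14 negative acute phase proteins, which normally fall in the response, differed by a median of 0.30, and the 10 hepatocyte markers by 0.30. Of these, 6 of the 14 and 4 of the 10 were also highest in that liver, as were 1363 of all 16509 genes tested. The last 2 lists share *Alb*, *Apoa1*, *Ttr* and *Trf*, so their medians and counts are not separate results. The largest median among the lists plotted was that of the 7 tested neutrophil markers, 3.55, of which 0 were highest in that liver. Genes singled out after their values were seen show the contrast: *Steap4*, a metal reductase induced in inflammation, had 1041 CPM in that liver and at most 157 CPM in the others, *Serpina3n*, a protease inhibitor, 4135 against at most 1383 CPM, and *Lbp*, which carries bacterial lipopolysaccharide, 420 against at most 160 CPM. *Itih1* and *Itih2*, heavy chains related to *Itih4*, had 745 and 864 CPM there and 536 to 660 and 837 to 1299 CPM elsewhere, while *Itih3* had 2881 CPM against at most 1408 CPM.

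**Figure D4:**
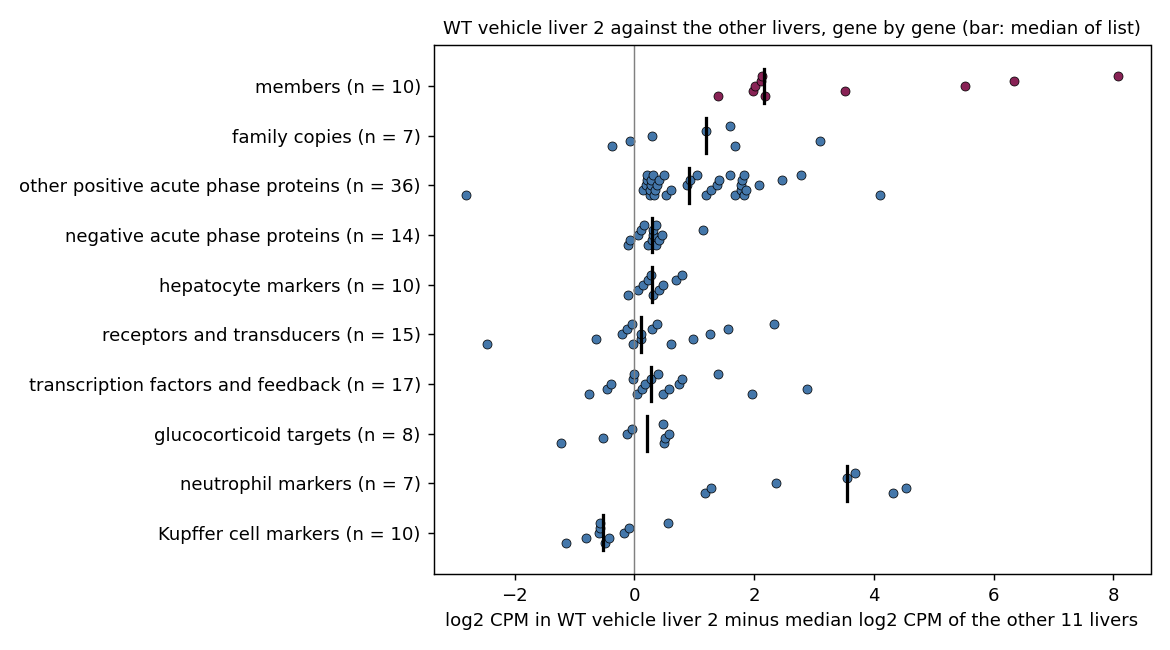
Each point is one gene, placed by its log2 CPM in WT vehicle liver 2 minus its median log2 CPM in the other 11 livers, and each row is one list of tested genes with its median as a bar. The 10 members all lie right of 0 with a median of 2.16, against 0.91 for other positive acute phase proteins and 0.30 for hepatocyte markers, and the 7 neutrophil markers have a median of 3.55. By their medians in the other 11 livers, the neutrophil markers were near the floor. Some lists share genes.

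Markers of other cells moved with some of these values. The 14 neutrophil markers summed to 20.5 CPM in WT vehicle liver 2, 1.24 and 2.10 CPM in the other WT vehicle livers, 13.9 to 134 CPM in WT APAP livers, 1.60 to 2.72 CPM in vehicle livers labelled KO and 1.20 to 9.35 CPM in APAP livers labelled KO, with the granule genes *Mpo* and *Camp* at 0 in all 12. *Lcn2*, which neutrophils also make, stood at 956 CPM where the markers summed to 20.5 CPM and at 43.7 CPM in WT APAP liver 1, where they summed to 134 CPM, and the part of neutrophils in the bulk level was not tested. In bulk liver, more or fewer cells of a type and more or less RNA per cell cannot be told apart. Kupffer cell markers summed to 135 CPM in WT vehicle liver 2 and 131 to 287 CPM elsewhere, and 0 of 10 were highest there. WT APAP liver 1 also held 17366 CPM of erythroid markers, against 253 to 749 CPM in the other livers, and whether this bears on its values here was not tested.

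The signalling route to these genes was followed through lists of its parts, in the fit of APAP against vehicle over all livers, where 14.0% of all genes were called higher and 11.4% lower (15.2% and 12.3% without WT vehicle liver 2). That liver was chosen for its high level of the members, so calls on any list without it are a description and no test. Of 10 cytokines that can induce the response, 7 were tested in all 12 livers. After APAP, 4 were called higher (*Il1b*, *Lif*, *Il11* and *Clcf1*) and *Ctf1* lower. *Lif* and *Il11* were near the floor, at 0.744 and 0.837 CPM at most. *Il1b* had 13.3, 3.52 and 0.620 CPM in the WT APAP livers and 0.224 to 0.954 CPM in the APAP livers labelled KO. Vehicle livers had 0.131 to 0.898 CPM of *Il1b*. The call on *Il1b* was lost without WT vehicle liver 2, and the other 4 were made there too. *Clcf1*, an IL-6 family cytokine, rose by 2.05 ± 0.29 on the log2 scale (adjusted p = 0.000393). Of the other cytokines, *Il6* had no count in 10 of the 12 livers and 0.457 CPM at most, and 0 of the 7 tested were highest in WT vehicle liver 2. Among 15 receptors and transducers 3 rose, including *Osmr* (1.10 ± 0.36, adjusted p = 0.0420), the oncostatin M receptor, and *Jak1* (0.48 ± 0.11, adjusted p = 0.00701), and 3 fell, including *Lifr*. The counts were 4 and 1 without WT vehicle liver 2, with *Tnfrsf1a* added to those higher, and *Il6ra* and *Il1rap*, which fell with all livers, no longer passed.

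Transcription factors and feedback genes of the route stood above vehicle after APAP in many cases. Of 17 tested, 8 rose and 0 fell in all 12 livers, with a median of 0.76, and 11 rose and 0 fell without WT vehicle liver 2, against 14.0% and 15.2% of all genes called higher in these fits. The calls gained without that liver, *Stat3*, *Socs3* and *Bcl3*, are on genes that were highest in it. The count without it is therefore a description and no test. *Nfkbiz*, an inducible nuclear IkB protein, rose by 2.44 ± 0.28 (adjusted p = 7.61e-05), *Socs1*, a feedback inhibitor of JAK, by 2.66 ± 0.49 (adjusted p = 0.00174), *Pim1*, a STAT target kinase, by 1.66 ± 0.36 (adjusted p = 0.00464) and *Rela*, an NF-kB subunit, by 0.76 ± 0.15 (adjusted p = 0.00291). Under the KO label the same count was 11 rising and 0 falling (22.6% of all genes called in either direction), beside the 1 rising and 1 falling of the 10 members. In WT it was 1 rising, *Nfkbiz*, and 0 falling, both with all 6 livers (2.05% of all genes called) and without WT vehicle liver 2 (1.43%). The test of whether the APAP response differed between labels called 0 of these 17, with and without WT vehicle liver 2 (0% of all genes in both). In WT vehicle liver 2, 4 of the 17 were highest of all livers, as were 1363 of all 16509 genes tested. They were *Socs3* (125 CPM, 102 at most elsewhere), *Stat3* (381 CPM, 229 at most elsewhere), *Bcl3* (123 CPM, 77.6 at most elsewhere) and *Hnf4a* (1155 CPM, 957 at most elsewhere). These 4 were singled out after their values were seen, while *Nfkbiz* had 17.6 CPM there against 29.7 to 125 CPM in the APAP livers.

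Of the 36 tested positive acute phase proteins outside the members, 4 rose and 3 fell after APAP in all 12 livers (14.0% and 11.4% of all genes), and 13 rose and 2 fell without WT vehicle liver 2 (15.2% and 12.3%). In that liver 20 of the 36 were highest, as were 1363 of all 16509 genes tested. The count without it is therefore a description and no test. *Cd14*, a lipopolysaccharide coreceptor, rose by 2.55 ± 0.55 on the log2 scale (adjusted p = 0.00495). *Crp*, C-reactive protein, which responds weakly in mice, fell by 0.91 (SE 0.21, adjusted p = 0.00739) on the log2 scale, and *Serping1*, the C1 inhibitor, fell by 0.38 (SE 0.11, adjusted p = 0.0211). The 3 fibrinogen chain genes were among the 13 that rose without that liver and among the 10 that rose under the KO label. In WT vehicle liver 2 the chains *Fga*, *Fgb* and *Fgg*, singled out after their values were seen, had 14626, 12207 and 9797 CPM, above all other livers, of which the highest had 7702, 6776 and 5372 CPM.

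Of the 14 negative acute phase proteins, 1 fell after APAP and 0 rose, with and without WT vehicle liver 2: *Serpina6*, which carries corticosteroids in plasma, fell by 1.85 (SE 0.25, adjusted p = 0.000231). Of 8 glucocorticoid targets 2 rose and 3 fell, with and without that liver (14.0% and 11.4% of all genes with it), with *Dusp1* at 3.43 ± 0.30 (adjusted p = 8.83e-06), and 0 of 8 were highest in WT vehicle liver 2. Of the 7 genes for receptors and enzymes that handle the ligands of the members, *Hmox1*, the heme oxygenase that acts downstream of hemopexin and haptoglobin uptake, rose by 5.38 ± 0.43 (adjusted p = 4.87e-06) and *Lrp1*, the hemopexin receptor, fell by 0.61 (SE 0.21, adjusted p = 0.0488), a call that was lost without WT vehicle liver 2 (-0.52 ± 0.21, adjusted p = 0.0935). In WT vehicle liver 2, *Hmox1* stood at 48.2 CPM, above the other vehicle livers (10.6 to 16.3 CPM) and below every APAP liver (485 to 1204 CPM).

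Across the 12 livers, the genes outside the 10 members whose log2 CPM followed *Saa1* most closely were *Itih3* (Pearson r = 0.936), *Gm38847* (r = 0.916), *Myd88* (r = 0.907), *Apcs* (r = 0.901) and *Ssx2ip* (r = 0.895), taking only genes whose average log2 CPM reached 1. Without WT vehicle liver 2 (n = 11) these became 0.865, 0.839, 0.770, 0.836 and 0.745. For *Hp* the 5 closest were *Serpina10* (r = 0.961), *Itih3* (r = 0.934), *Tmem38b* (r = 0.912), *Gm7694* (r = 0.911) and *Myd88* (r = 0.910), which dropped to between 0.512 and 0.725 without that liver. Among the members, *Saa2* tracked *Saa1* at 0.986 with all livers and 0.966 without WT vehicle liver 2, and *Orm2* at 0.930 and 0.822, whereas *Lcn2* went from 0.707 to 0.464 and *Saa4* from 0.770 to 0.500. These values are descriptions over libraries that include one very high liver, and carry no test.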

How the data were processed

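The authors deposited one table with read counts, FPKM and TPM per gene for 12 liver libraries of total RNA (poly-A selected, stranded kit). Per the labels' processing notes, the submitters used FastQC 0.11.7, Trimmomatic 0.38, HISAT2 2.1.0, Bowtie2 2.3.4.1 and StringTie 2.1.3b. How reads shared by near copies were assigned is not given in the sources used here. Every per-sample column was mapped to a liver by its name. The deposited counts were tested with edgeR 4.0.16 (R 4.3.3; quasi-likelihood, TMM, filterByExpr), p-values adjusted by Benjamini-Hochberg across every tested gene at a threshold of 0.05, checked on simulated data. CPM are counts divided by the TMM-scaled library total. The deposited TPM served to order genes and, as quantile-normalized log2 values, in limma 3.58.1. The deposited FPKM were not used. Alternatives were DESeq2 1.42.0, its size factors, other filters, all 12 livers in one fit, a replicate block, and leaving out each liver. Leaving out a further liver beside WT vehicle liver 2 was added after seeing the data. Replicates are separate livers, 3 per group, and the report gives the range of their depth.

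The members and lists were chosen with earlier results of these data known. Named genes are the 10 members, at most 4 genes per list with the smallest p for APAP against vehicle in all livers, and the 5 genes closest to *Saa1* and to *Hp*. Further genes of the lists were named after their values were seen. One gene that this rule names is not reported here.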

Additional observations from a re-analysis of the deposited data

Results flagged for a closer look

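Among the 6 vehicle livers, pooled over both genotype labels, WT vehicle liver 2 lay far from the rest in 7 of the 10 genes, by Dixon's ratio of the gap to the nearest liver over the whole range (on log2 CPM, past the 95% critical value). The ratio was 0.899 for *Hp*, 0.719 for *Saa2*, 0.685 for *Lcn2*, 0.681 for *Itih4*, 0.68 for *Hpx*, 0.647 for *Orm1* and 0.641 for *Orm2*. It was 0.612 for *Saa1*, 0.585 for *Saa4* and 0.406 for *Saa3*, which did not pass. Chance flags about 1 in 20 groups, but that rate does not apply here: the liver was singled out beforehand for its high level of these genes and the ratios all come from it, so they are a description and no test.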

How the results depend on the processing

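DESeq2, its size factors, no filter and a minimum of 10 counts in every library changed no direction and no call of any member. Under the KO label, the 2 calls became 0 with all 12 livers in one fit (WT vehicle liver 2 included), 1 with the replicate block, and 0 to 3 when one liver was left out. With limma on quantile-normalized log2(TPM + 1) they became 1, and on quantile-normalized log2(TPM + 0.1) they became 0. Over all livers the count was 0 to 2 when one liver was left out, and with WT vehicle liver 2 out already it was 1 to 2 (0 to 2 in WT).

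Replicate numbers did not pair the livers (correlations of deviations -0.264 to 0.0491). With the replicate block, log2 fold changes in WT turned to 1.34 for *Saa1*, 2.12 for *Saa2*, 0.72 for *Saa3*, 0.34 for *Orm1*, 0.77 for *Orm2* and 3.44 for *Lcn2*. Others turned to -0.11 for *Saa1* under the KO label, 0.19 for the interaction of *Orm1*, 0.0559 for *Lcn2* between labels after APAP, -0.0119 for *Saa3* between labels with vehicle and 0.0002 for *Saa3* over all livers.

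With limma on log2(TPM + 1) the same WT genes turned to 0.0239, 0.17, 0.32, 0.13, 0.33 and 1.43, and with a pseudocount of 0.1 to 0.0456, 0.25, 0.42, 0.13, 0.37 and 1.60. *Saa1* under the KO label was -0.0765 and -0.0779, and between labels after APAP *Itih4* was -0.0787 and -0.0789 and *Hpx* -0.0905 and -0.0906. The interaction of *Saa1* was 0.13 and 0.15, that of *Orm1* 0.36 and 0.36, and that of *Orm2* 0.0038 and 0.0396. Over all livers *Saa2* was 0.33 and 0.37, *Saa3* 0.0577 and 0.0934, and *Orm2* 0.32 and 0.35. *Saa3* between labels with vehicle was -0.0088 with 0.1. The cause of these turns was not tested.

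Leaving out one liver at a time turned the direction of some members, and their log2 fold changes then ranged as follows. In WT they were -4.46 to 2.59 for *Saa1*, -5.73 to 4.20 for *Saa2*, -0.56 to 1.66 for *Saa3*, -1.43 to 0.22 for *Saa4*, -0.80 to 1.15 for *Orm1*, -1.91 to 2.00 for *Orm2*, -0.94 to 0.45 for *Hp*, -0.63 to 0.38 for *Hpx*, -3.29 to 4.94 for *Lcn2* and -1.08 to 0.65 for *Itih4*. Under the KO label they were -0.69 to 0.37 for *Saa1*, -0.27 to 1.15 for *Saa2*, -0.45 to 0.36 for *Saa3*, -0.40 to 0.0541 for *Orm1* and -0.0268 to 0.37 for *Itih4*. Between labels after APAP they were -1.27 to 1.42 for *Lcn2*. Between labels with vehicle they were -0.22 to 5.50 for *Saa1*, -0.54 to 7.37 for *Saa2*, -1.08 to 1.21 for *Saa3*, -0.59 to 1.08 for *Saa4*, -0.66 to 1.29 for *Orm1*, -1.01 to 2.92 for *Orm2*, -0.12 to 1.28 for *Hp*, -0.29 to 0.73 for *Hpx*, -1.56 to 6.65 for *Lcn2* and -0.34 to 1.40 for *Itih4*. For the interaction they were -4.55 to 2.51 for *Saa1*, -6.54 to 3.40 for *Saa2*, -0.44 to 1.84 for *Saa3*, -0.25 to 1.40 for *Saa4*, -0.64 to 1.31 for *Orm1*, -2.35 to 1.56 for *Orm2*, -0.69 to 0.70 for *Hp*, -0.44 to 0.57 for *Hpx*, -6.87 to 1.38 for *Lcn2* and -1.22 to 0.52 for *Itih4*. Over all livers they were -1.70 to 1.12 for *Saa1*, -1.81 to 2.15 for *Saa2*, -0.36 to 0.58 for *Saa3*, -0.45 to 0.40 for *Orm1*, -0.72 to 1.10 for *Orm2*, -0.56 to 0.056 for *Hp*, -0.38 to 0.0581 for *Hpx*, -0.31 to 4.13 for *Lcn2* and -0.42 to 0.35 for *Itih4*. Without WT vehicle liver 2, 36 directions turned, and with another liver left out 27 did.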
